A study of Mus musculus with 3 samples.

Results

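The genes described here are 10 genes of myoblast adhesion and fusion, taken by name from 18344 genes that could be named on the array: the fusogen gene Mymk, the cadherin genes Cdh15 and Cdh2, the receptor gene Megf10, the immunoglobulin-superfamily genes Vcam1, Cdon, Boc, Jam2 and Jam3, and the ferlin gene Dysf. They were found on the array by the RefSeq accession of each probe, which gave 12 probes in all, 2 each for Vcam1 and Cdon and 1 for every other gene, each spotted once. There were 3 samples, all of C2C12, a mouse myoblast cell line, with 1 one-colour Agilent array each. Neurogenic cellulates had the treatment of BIO cellulates, then 250 nM reversine for 48 h and 1.5 µM all-trans retinoic acid in N2-supplemented medium on laminin for 7 days. BIO cellulates came from myotubes that had differentiated for 8 days in medium with 2% horse serum, and AraC (10 µM, days 2 to 4), which kills dividing cells, was added to remove unfused myoblasts. The myotubes were broken into cellulates with the microtubule-binding compound myoseverin for 48 h and given BIO, a GSK-3 inhibitor, for 2 days, beginning 24 h after myoseverin. The sources disagree on doses, with BIO at 2.5 or 10 µM and myoseverin at 20 or 30 µM. The third sample was untreated C2C12 myoblasts. Neither intact myotubes nor cellulates without BIO were analysed here, so the effects of differentiation, AraC, myoseverin and BIO cannot be told apart, nor those of medium, reversine, retinoic acid and time.

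Myoblasts become muscle fibres in ordered steps: they leave the cell cycle, recognise and adhere to each other through cadherins and immunoglobulin-superfamily proteins, align, and merge their membranes. Cell-surface receptors such as Cdon and Boc pass the contact on to the differentiation programme, and the muscle-specific membrane protein myomaker, encoded by Mymk, is needed for the merging itself. Ferlins, among them dysferlin, act in calcium-dependent membrane traffic and in the resealing of torn muscle membrane.

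Each value below is a scaled signal, the log2 of the scanner's background-subtracted intensity minus the log2 of the array's 75th percentile, so that 0 is the brightness of that percentile and probes of different genes cannot be set against each other. A probe was measured on an array where the scanner software called it well above background; the lowest such signals were -2.57, -2.73 and -3.73 on the neurogenic, BIO and myoblast arrays. Where 1 of the 2 arrays measured a gene, its fold is a lower bound, marked "at least". The calling threshold was 2-fold. With 1 array per group there is no error between cultures and no test of any difference. The ratios are called BIO/myoblast, neurogenic/BIO and neurogenic/myoblast, with the array named first on top. Spot noise was read from 122 probes with 10 spots on each array; it gave a 95% limit for a pair of spots of 1.37-fold (BIO/myoblast), 1.31-fold (neurogenic/BIO) and 1.33-fold (neurogenic/myoblast). Each array enters 2 of the ratios, and the neurogenic/myoblast log2 ratio is the sum of the other two where all 3 arrays measured a gene.

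As a check of the labels, the myogenic regulator gene Myod1 was measured on all 3 arrays, at 0.58, 0.98 and 0.62 in neurogenic cellulates, BIO cellulates and myoblasts, and Myf5 on none. Of the 5 myogenic markers that include these, 4 were compared. Past the threshold 1 was higher by the BIO/myoblast ratio, 0 by the neurogenic/BIO ratio and 2 by the neurogenic/myoblast ratio, and 0 were lower in any. By the BIO/myoblast ratio 5 of 5 terminal muscle genes were higher past the threshold, and 4 of 4 proliferation genes compared were lower. By the neurogenic/myoblast ratio 4 of 5 proliferation genes were lower, and 1, measured on the neurogenic array alone, was higher. Of 5 endothelial markers 0 were measured on any array, while Esam, an adhesion gene of endothelium outside that list, was measured on all 3 at -0.07, 0.37 and -0.96 in neurogenic cellulates, BIO cellulates and myoblasts. Of 5 fibroblast markers 3 were measured; Dcn was 6.47-fold higher in neurogenic than in BIO cellulates, Thy1 had a log2 ratio of -0.14 and Col1a1 of -0.45, and their part in the results below was not tested. Of the leukocyte markers, Ptprc and Adgre1 were measured on no array, whereas the probe of Cd3e was measured on all 3.

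The 10 genes did not all differ in the same direction. By the BIO/myoblast ratio 3 of 9 genes, Cdh15, Megf10 and Cdon, were lower past the threshold and 0 higher, where 6.01% of all 12824 genes compared were lower and 11.2% higher. By the neurogenic/BIO ratio 2 of 7 genes, Vcam1 and Cdon, were higher and 0 lower, where 4.16% of 12252 genes were higher and 1.8% lower. By the neurogenic/myoblast ratio 2 of 9 genes, Vcam1 and Jam2, were higher and 2, Cdh15 and Megf10, lower, where 12.1% of 12849 genes were higher and 10.0% lower. The members' median log2 ratios were 0.00, 0.12 and 0.41, beside 0.00, -0.17 and -0.06 over all genes compared. The first member median falls on ratios set to 0 for genes too close to background. Over genes measured on both arrays the members' medians were 0.14, 0.08 and 0.44, beside 0.01, -0.18 and -0.15 for all genes. Cdh2 had no ratio in any comparison and is in none of these totals. Boc and Jam2 by the BIO/myoblast ratio, and Boc by the neurogenic/myoblast ratio, were too close to background for a fold. They stand in the totals of 9 with a log2 ratio set to 0, and could not have been called. In RNA from whole cultures, fewer cells of a type and less RNA per cell cannot be told apart.

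**Figure D1:**
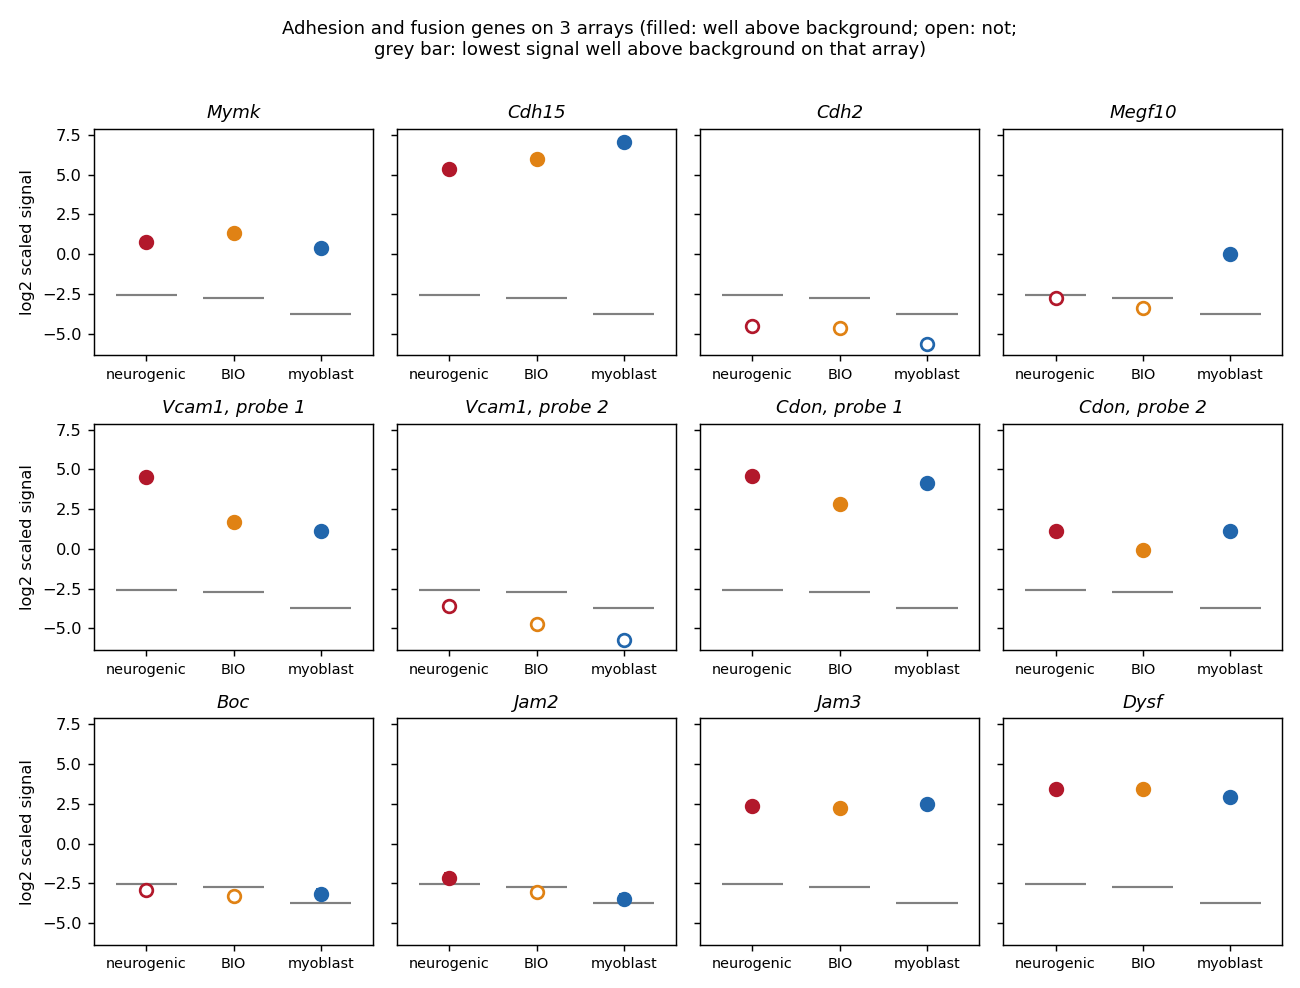
Scaled signals (log2, y axis) of the 12 probes of the 10 genes on the neurogenic, BIO and myoblast arrays (x axis), 1 array each. Filled circles are well above background and open circles are not; vertical bars, mostly hidden by the circles, are the scanner software's error, and grey bars mark the lowest signal well above background on that array. Cdh15 is lowest on the neurogenic array and highest on the myoblast array, Cdon is lowest on the BIO array with both probes, Vcam1 stands out on the neurogenic array with probe 1, and Megf10 is filled on the myoblast array alone.

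Cdh15 and Cdon, which were both lower in BIO cellulates than in myoblasts, are the called members with a promoter window in the RefSeq table. Their 250 bases before an annotated start (GRCm38.p6, plus strand, 5′ to 3′) are shown to compare what precedes the start; capitals mark the E-box CANNTG, the letters bound by basic helix-loop-helix factors such as MyoD. The Cdh15 window is chr8:122848124-122848373 and the Cdon window chr9:35451826-35452075. The Cdon start lies inside the annotated gene.
Cdh15: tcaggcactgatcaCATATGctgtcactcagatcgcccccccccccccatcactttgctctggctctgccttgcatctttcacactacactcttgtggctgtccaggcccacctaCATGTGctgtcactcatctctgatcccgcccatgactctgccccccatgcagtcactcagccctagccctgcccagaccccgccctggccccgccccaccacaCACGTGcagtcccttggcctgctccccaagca
Cdon: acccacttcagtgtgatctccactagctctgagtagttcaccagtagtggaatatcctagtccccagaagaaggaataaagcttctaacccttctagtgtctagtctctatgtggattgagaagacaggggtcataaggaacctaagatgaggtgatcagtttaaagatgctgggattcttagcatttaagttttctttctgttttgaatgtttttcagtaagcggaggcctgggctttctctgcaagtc
The E-box letters read the same pattern on both strands. They occur 3 times before Cdh15 and 0 times before Cdon. An E-box lies in 66.2% of all 32851 windows of this length, and 12.2% hold 3 or more. Neither window holds CAGCTG, a subset of the E-box, nor AGGTCA, the nuclear receptor half-site, nor CTTTGA, the letters bound by TCF and LEF factors, nor the MEF2 motif, searched on both strands and present in 13.0%, 14.0%, 13.8% and 2.92% of all windows. Dysf, which has 2 windows in the table, had 0 E-boxes in both and 1 AGGTCA in the first.

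The cadherins join neighbouring myoblasts through calcium-dependent contacts. Cdh15 encodes M-cadherin, the cadherin of satellite cells and myoblasts, and its scaled signal was 5.37 in neurogenic cellulates, 5.97 in BIO cellulates and 7.07 in myoblasts. These came from intensities of 6453 ± 645, 7195 ± 719 and 24376 ± 2438 (± the scanner software's error for a spot). The signal was thus lower on both cellulate arrays than on the myoblast array. BIO cellulates were 2.15-fold lower than myoblasts (log2 ratio -1.11, scanner-software SE 0.20), neurogenic cellulates 1.51-fold lower than BIO cellulates (-0.60, SE 0.20) and 3.25-fold lower than myoblasts (-1.70, SE 0.20). All 3 differences lay beyond the limit for repeat spots under the main scaling. The neurogenic/BIO log2 ratio fell within its limit of 0.39 under quantile normalisation (-0.32) and scaling to spike-in controls (-0.24). Among genes measured on both arrays, 296 of 10882 had a lower neurogenic/myoblast ratio than Cdh15. The call by the BIO/myoblast ratio was lost by a small margin under other scalings, with log2 ratios of -0.93 (percentile over probes well above background), -0.95 (quantile) and -0.89 (spike-in controls). Cdh2 encodes N-cadherin, the second classical cadherin of myoblasts. Its single probe was not well above background on any array, with intensities of 6.90, 4.53 and 3.67 on the neurogenic, BIO and myoblast arrays, each about as large as its own error of 6.89, 4.51 and 3.67, and so gave no ratio.

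Vcam1 encodes a receptor of the immunoglobulin superfamily that binds integrin α4β1 on the partner cell. By its brighter probe the scaled signal was 4.49 in neurogenic cellulates, 1.71 in BIO cellulates and 1.15 in myoblasts, from intensities of 3497 ± 350, 376.5 ± 37.9 and 401.8 ± 40.3. The neurogenic array stood far above the other arrays. Neurogenic cellulates were 6.85-fold higher than BIO cellulates (log2 ratio 2.78, SE 0.20), and only 19 of 10872 genes measured on both arrays had a higher ratio. They were 10.1-fold higher than myoblasts (3.34, SE 0.20), with 76 of 10882 genes higher. BIO cellulates were 1.48-fold above myoblasts (0.56, SE 0.20), beyond the repeat-spot limit and under the calling threshold; with each array scaled to its median this ratio was -0.16. The second Vcam1 probe was not well above background on any array, at -3.57, -4.74 and -5.72 on the neurogenic, BIO and myoblast arrays, and gave no ratio, so the values of Vcam1 rest on 1 probe. The gene of the integrin α4 chain, Itga4, named here after its values were seen, was measured in myoblasts alone, with scaled signals of -3.10, -2.86 and -3.20, too close to background for a fold.

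**Figure D2:**
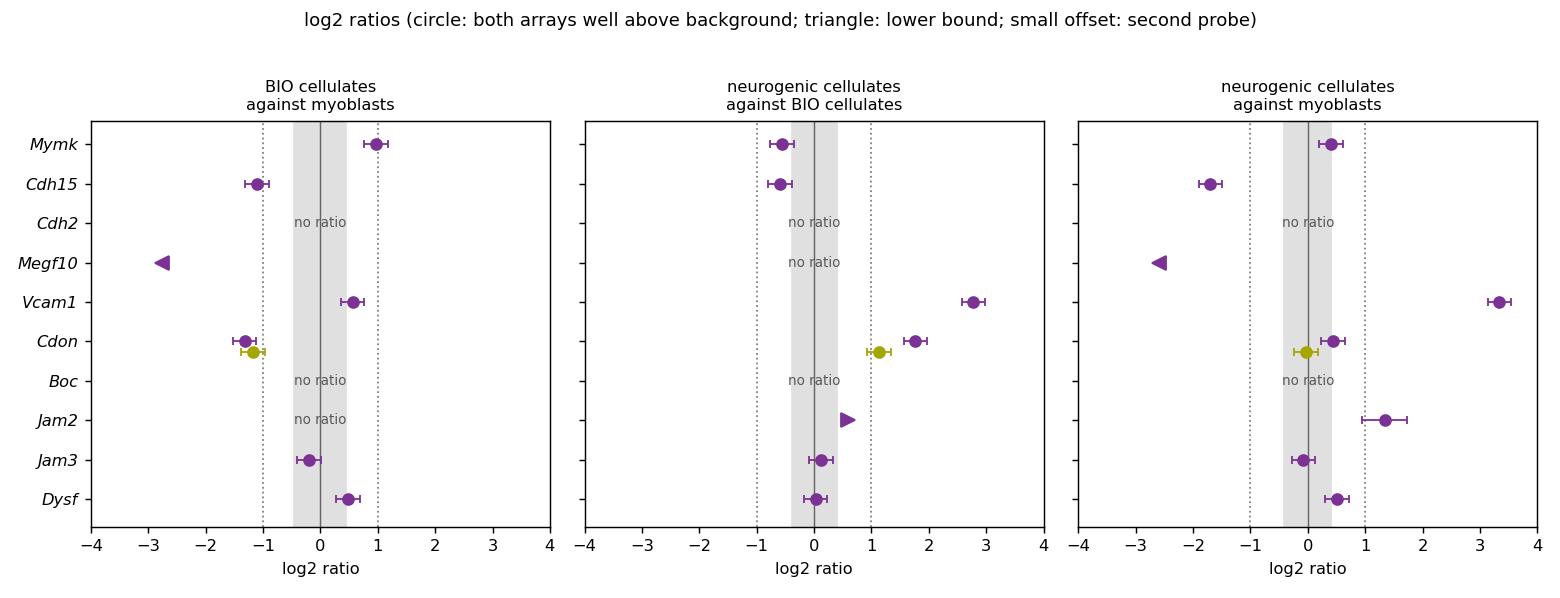
Log2 ratios (x axis) of the 10 genes (rows) in the 3 comparisons. Circles are ratios with both arrays well above background, with bars for the scanner software's SE; triangles are lower bounds; grey bands are the 95% limit for single repeat spots, dotted lines the 2-fold threshold, and the offset symbols of Cdon its second probe. Vcam1 lies at 2.78 and 3.34 in the comparisons of neurogenic cellulates, while Jam3 stays inside the grey band in all 3.

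Jam2 and Jam3 encode junctional adhesion molecules that bind each other across the contact, a pairing required for muscle precursor fusion in zebrafish. Jam3 had scaled signals of 2.39 in neurogenic cellulates, 2.27 in BIO cellulates and 2.47 in myoblasts. These 3 values lay closest together of all 6 members measured on every array, with a range of 0.20 on the log2 scale, narrower than that of all but 7.01% of 10663 genes so measured. Its log2 ratios of -0.20, 0.12 and -0.08 in the 3 comparisons were each within the repeat-spot limit. This range and these ratios belong to the main scaling. With median scaling the BIO/myoblast and neurogenic/myoblast ratios were -0.92 and -0.81. With spike-in scaling the neurogenic/BIO and neurogenic/myoblast ratios were 0.48 and 0.50. All of these lay beyond the limit. Jam2 was near background, at -2.13 in neurogenic cellulates, -3.03 in BIO cellulates, where it was not well above background, and -3.48 in myoblasts. Neurogenic cellulates were at least 1.51-fold higher than BIO cellulates and 2.54-fold higher than myoblasts (log2 ratio 1.34, SE 0.39). Other dim genes had ratios of similar size: 292 genes measured on both arrays and below -3 in myoblasts had a median log2 difference of 1.28 by the neurogenic/myoblast ratio, and 5453 genes dim on both had 1.14. No neurogenic signal under -2.57 was well above background, so the ratios of the 292 could only be positive. The call for Jam2 was lost with quantile normalisation (0.66), normexp correction (0.62) and scaling to the array median (0.61).

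Cdon and Boc encode related co-receptors that bind each other and cadherins at sites of cell contact, promote myogenic differentiation, and also bind hedgehog ligands. By its brighter probe Cdon had scaled signals of 4.61 in neurogenic cellulates, 2.85 in BIO cellulates and 4.17 in myoblasts, from intensities of 3804 ± 380, 825.7 ± 82.7 and 3254 ± 325. The second probe gave 1.10, -0.04 and 1.13 in the same order of arrays. Both probes were lowest on the BIO array, with the other arrays close together. BIO cellulates were 2.50-fold lower than myoblasts by the brighter probe (log2 ratio -1.32, SE 0.20) and 2.25-fold lower by the second (-1.17, SE 0.21). Neurogenic cellulates were 3.40-fold higher than BIO cellulates by the brighter probe (1.77, SE 0.20) and 2.20-fold higher by the second (1.14, SE 0.21), and 77 of 10872 genes had a higher ratio than the brighter probe. Neurogenic cellulates against myoblasts gave log2 ratios of 0.44 and -0.03, of which the first lay just beyond the repeat-spot limit of 0.41 and the second within it. With each array scaled to its median the first was -0.29, under a scaling that put the median of all genes at -0.79 in place of -0.06. With spike-in scaling it was 1.02, past the calling threshold, and the median of all genes was 0.35. The probe of Boc was measured in myoblasts alone, at -3.19, with -2.90 in neurogenic and -3.27 in BIO cellulates; no fold can be given between values so close to background, and whether Boc moved with Cdon could not be seen.

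Megf10 encodes a receptor with EGF-like repeats that is found on satellite cells and, in the brain, takes part in engulfment by astrocytes. Its scaled signals were -2.78 in neurogenic cellulates and -3.40 in BIO cellulates, neither well above background, and 0.03 in myoblasts, from intensities of 22.7 ± 5.66, 10.9 ± 3.64 and 184.2 ± 18.6. It was the only member whose probe was far above background on 1 array and dim on both others. BIO cellulates were at least 6.77-fold lower than myoblasts and neurogenic cellulates at least 6.05-fold lower. After normexp correction these bounds were -1.42 and -1.36 on the log2 scale. Of 6077 genes dim on both cellulate arrays, 935 (15.4%) were well above background in myoblasts. The lowest measured signal was -3.73 in myoblasts, against -2.57 and -2.73 on the cellulate arrays. Genes of the same low brightness could therefore count in myoblasts alone, whereas Megf10 lay at 0.03 there.

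Mymk encodes myomaker, a membrane protein of muscle that is needed on both fusing cells. Its scaled signals were 0.80 in neurogenic cellulates, 1.35 in BIO cellulates and 0.39 in myoblasts, from intensities of 270.9 ± 27.9, 293.8 ± 29.7 and 236.9 ± 24.0. The gene was measured on every array, highest on the BIO array. BIO cellulates were 1.95-fold higher than myoblasts (log2 ratio 0.97, SE 0.21), just short of the calling threshold, and 999 of 11181 genes measured on both arrays had a higher ratio. The threshold was passed with the percentile over probes well above background (1.14), quantile normalisation (1.01) and spike-in scaling (1.18), while scaling to the array median gave 0.25. Neurogenic cellulates were 1.47-fold lower than BIO cellulates (-0.56, SE 0.21) and 1.33-fold higher than myoblasts (0.41, SE 0.21). The last of these lay at the repeat-spot limit of 0.41 and was -0.32 with median scaling. The terminal muscle genes Acta1 and Ckm, for scale, were 55.0-fold and 49.0-fold higher in BIO cellulates than in myoblasts. The partner fusogen gene Mymx was not analysed here.

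Dysf, the dysferlin gene, had scaled signals of 3.43 in neurogenic cellulates, 3.41 in BIO cellulates and 2.92 in myoblasts. Both cellulate arrays were slightly above the myoblast array. BIO cellulates were 1.40-fold higher than myoblasts (log2 ratio 0.48, SE 0.20) and neurogenic cellulates 1.42-fold higher (0.51, SE 0.20), both beyond the repeat-spot limits of 0.45 and 0.41, and both negative with median scaling (-0.23 and -0.22). Spike-in scaling gave 0.70 and 1.09, of which the second passed the calling threshold. Under the main scaling neurogenic cellulates against BIO cellulates gave 0.03, within the limit.

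**Figure D3:**
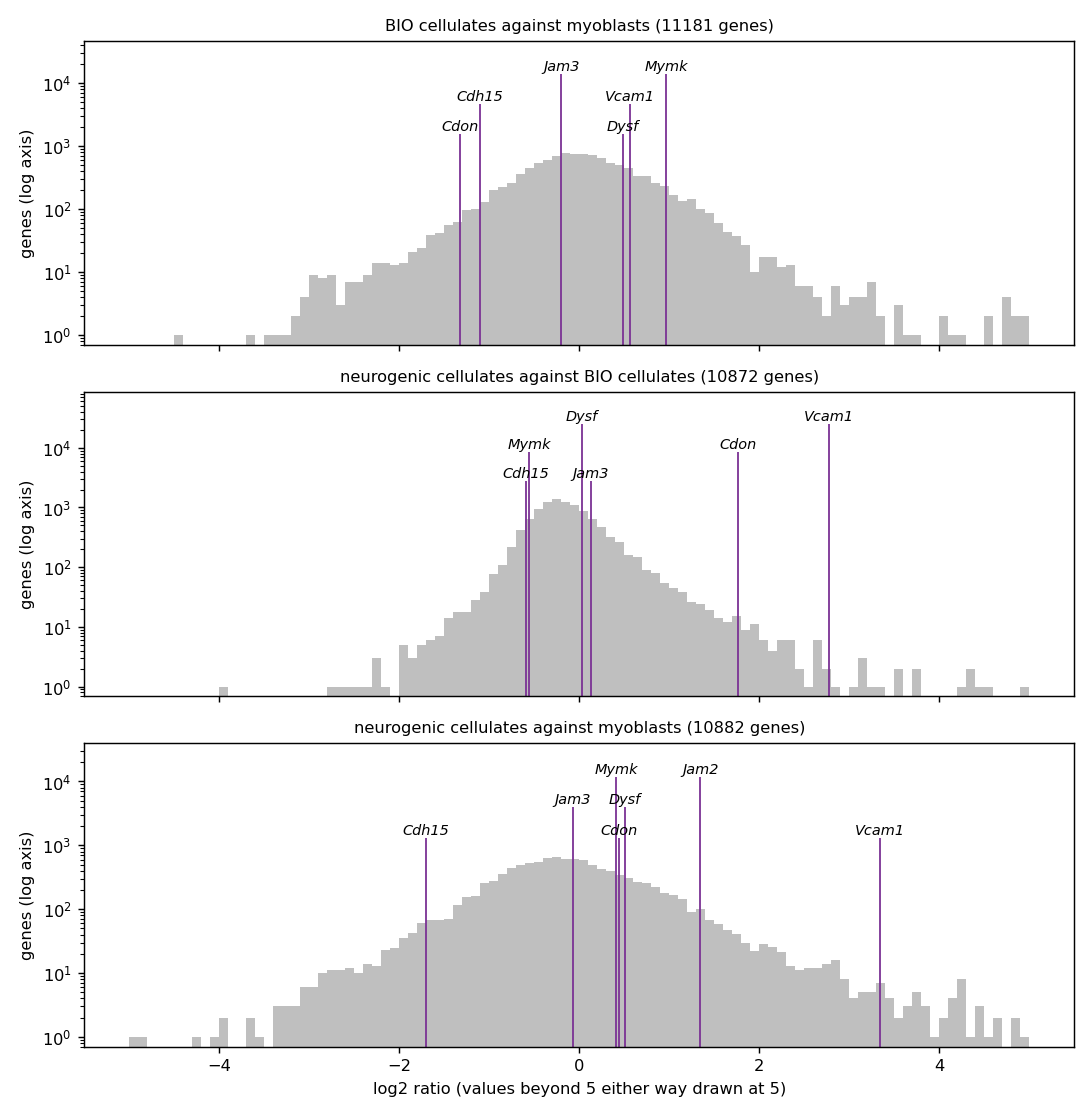
Number of genes (y axis, log scale) by log2 ratio (x axis) in each comparison, for genes well above background on both arrays, 11181, 10872 and 10882 from top to bottom. Purple lines mark the members measured on both arrays. Vcam1 and Cdon lie far to the right by the neurogenic/BIO ratio, where 19 and 77 genes had higher ratios.

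Scaling sets the zero of every ratio above. With each array scaled to its median, the median over all genes compared was -0.66 by the BIO/myoblast ratio and -0.79 by the neurogenic/myoblast ratio, while the main scaling gave 0.00 and -0.06. Spike-in scaling gave 0.18, 0.17 and 0.35 in the 3 comparisons. Both scalings move the ratio of every gene measured on both arrays of a comparison by the same amount. Ratios set to 0 for genes too close to background can move less or stay at 0.

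The members were set beside 95 other genes of adhesion and fusion in 6 lists, of which 91 could be named on the array. Past the threshold, 5 of 74 were higher and 8 lower by the BIO/myoblast ratio (6.76% and 10.8%), 3 and 1 of 70 by the neurogenic/BIO ratio (4.29% and 1.43%), and 6 and 11 of 76 by the neurogenic/myoblast ratio (7.89% and 14.5%). Over all genes the shares higher and lower were 11.2% and 6.01%, 4.16% and 1.8%, and 12.1% and 10.0%.

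Actin regulators and other fusion machinery had the most lower genes by the BIO/myoblast ratio, 4 of 17, with 0 higher and a median log2 ratio of -0.39. They were Adam12 (2.88-fold lower), a metalloprotease of fusing myoblasts, Dock1 (2.28-fold) and Dock5 (2.17-fold), which activate the GTPase Rac1, and Wasf2 (2.17-fold), which links Rac1 to actin branching. By the neurogenic/myoblast ratio 4 of 18 were lower and 1 higher, with a median of -0.39. The lower ones were Dock5 (3.97-fold), Adam12 (3.96-fold), Rac1 itself (2.47-fold) and Cdc42 (2.28-fold), whose 2 other probes differed in sign. The 1 higher was the tetraspanin gene Cd9, at least 5.44-fold. By the neurogenic/BIO ratio Cd9 was again the 1 of 16 called, at least 2.72-fold higher, and the median was -0.08.

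Ferlins and membrane repair genes had median log2 ratios of -0.31 (BIO/myoblast), -0.44 (neurogenic/BIO) and -0.61 (neurogenic/myoblast), where Dysf, not in the list, had 0.48, 0.03 and 0.51. Bin1, which shapes the transverse tubules, was 2.68-fold higher and the annexin gene Anxa2 2.20-fold lower in BIO cellulates than in myoblasts, among 14. The caveolin gene of muscle, Cav3, was 2.66-fold lower and Anxa5 2.53-fold higher in neurogenic than in BIO cellulates, among 13. By the neurogenic/myoblast ratio 4 of 14 were lower, Anxa2 (3.76-fold), Cav1 (2.79-fold), Ahnak (2.69-fold) and Ehd2 (2.42-fold), and 0 were higher. Another probe of Ahnak gave a log2 ratio of 0.30 there, while its remaining probes lay between -1.91 and -1.09.

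Cadherins and catenins had medians of -0.27, -0.12 and -0.40 in the same order of ratios. Cdh3, the P-cadherin gene, was 2.46-fold lower in BIO cellulates than in myoblasts and 3.94-fold lower in neurogenic cellulates than in myoblasts, and the plakoglobin gene Jup was 2.23-fold lower in the second of these pairs. The catenin gene Ctnna2 was at least 2.76-fold and at least 3.66-fold higher in them, and 0 of 11 were called by the neurogenic/BIO ratio.

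Integrin and immunoglobulin-superfamily partners had medians of 0.54, 0.20 and 0.50. The endothelial adhesion gene Esam was 2.52-fold higher in BIO cellulates than in myoblasts, the 1 of 14 called. F11r, the third gene of the junctional adhesion family, was at least 4.64-fold higher in neurogenic than in BIO cellulates, the 1 of 13 called, and at least 9.29-fold higher in neurogenic cellulates than in myoblasts. Cadm1, a cell adhesion gene, was 2.05-fold higher in the last pair, in which 2 of 15 were called, and 0 of these partners were lower past the threshold in any comparison. The probes of F11r, Cd9 and Mapk14 were dim on both other arrays; 347 of 5489 genes (6.32%) dim on both of those were well above background on the neurogenic array.

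Partners of Cdon and Boc had medians of -0.26, 0.12 and -0.0059. The hedgehog effector gene Gli2 was 3.35-fold lower in BIO cellulates than in myoblasts, although another probe of it gave a log2 ratio of 0.68, and the kinase gene Abl1 was 2.09-fold lower, among 10. By the neurogenic/BIO ratio, where Cdon was higher, 0 of 9 were called. Abl1 was 2.04-fold lower and the kinase gene Mapk14 at least 2.41-fold higher in neurogenic cellulates than in myoblasts, among 10. The neurogenic signal of Mapk14 was -2.47, beside the lowest measured signal of -2.57 on that array, and the median log2 difference among genes dim on both arrays of this pair was 1.14. Relatives of Megf10 and engulfment genes had medians of 0.38, -0.10 and 0.25, and included Stab1, a scavenger receptor gene, at least 3.30-fold higher, and Megf11, the closest relative of Megf10, 2.04-fold higher in BIO cellulates than in myoblasts, among 8. Of the 8, 0 were called by the neurogenic/BIO ratio, and by the neurogenic/myoblast ratio Stab1 was the 1 of 8, at least 2.85-fold higher. Stab1 had signals of -2.22 in neurogenic cellulates and -2.01 in BIO cellulates and Ctnna2 of -1.86 and -2.27, all within 1 log2 unit of the lowest measured signal there, and genes dim on both arrays differed by a median of 1.01 by the BIO/myoblast ratio.

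**Figure D4:**
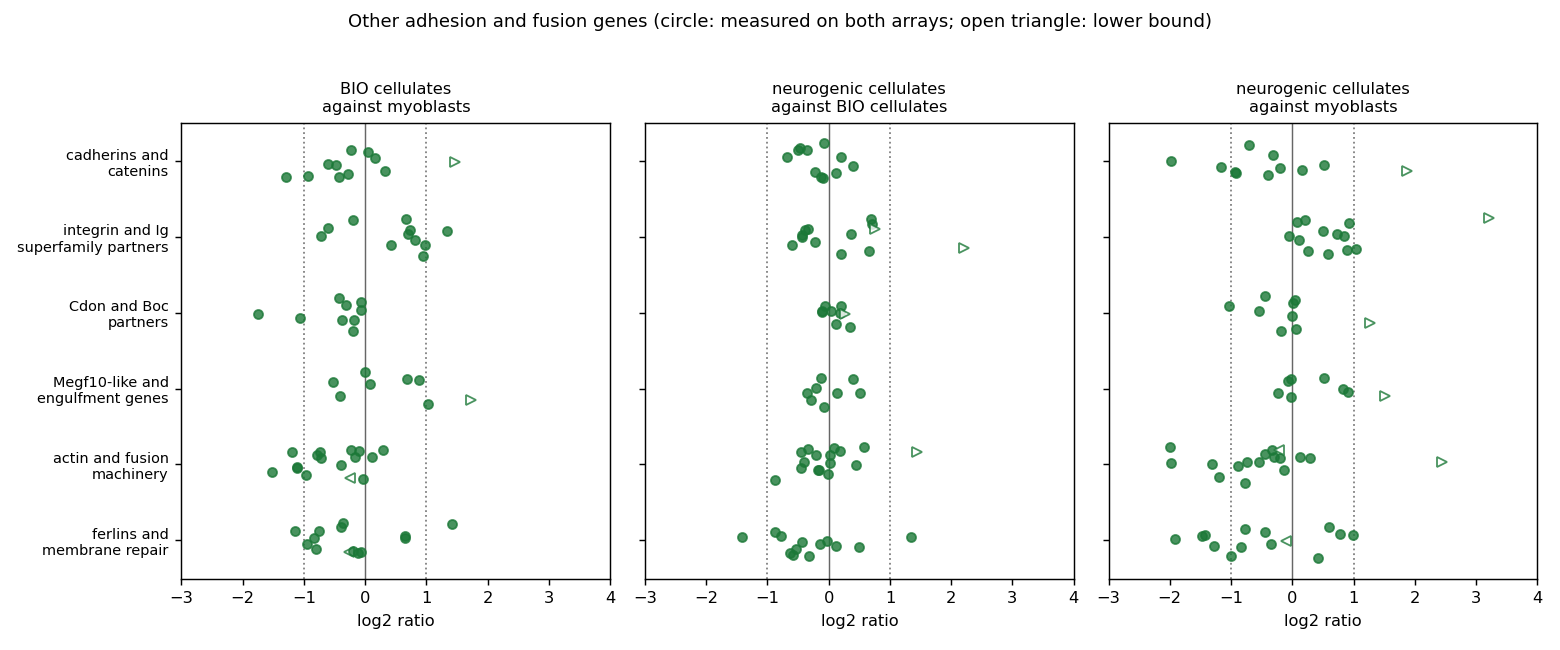
Log2 ratios (x axis) of the genes of the 6 other adhesion and fusion lists (rows) in the 3 comparisons. Filled circles are genes well above background on both arrays, open triangles lower bounds, and dotted lines the 2-fold threshold; vertical scatter within a row has no meaning. By the neurogenic/BIO ratio 4 of 70 genes pass the threshold, and the list of ferlins and membrane repair has its median at -0.44.

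Genes with the pattern most like a member were sought among 10663 named genes measured on all 3 arrays, by the Euclidean distance between log2 values centred on each gene's mean, for the 3 members of widest range. Such a likeness over 3 arrays is a description with no more than 2 free values behind it. Nearest to Vcam1 (range 3.34) were Mt2 at a distance of 0.07, Oasl1 at 0.30 and Sgce at 0.35. Nearest to Cdon (range 1.77) were Hoxa2 at 0.08, Nt5e at 0.11 and Snx17 at 0.14, and nearest to Cdh15 (range 1.70) were Cxcl12, Pard6g and Nudt21 at 0.03 each. Of these genes 99.2% had a narrower range than Vcam1, 93.95% a narrower range than Cdon and 93.27% a narrower range than Cdh15.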

How the data were processed

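Total RNA (200 ng per sample) was labelled with Cy3, per the labels' protocols, and hybridised to 1 array for each of 3 groups, which were taken from the treatment label. The arrays (design 014868, build mm9) were read with Feature Extraction 10.7.3.1, per the file headers; the deposited scanner output gives every spot's background-subtracted linear intensity, its error and its median pixel intensity. The authors' deposited table holds processed log2 values; set against the scanner intensities, its columns equal the log2 intensity plus 0.23 (neurogenic), 0.67 (BIO) and 0.00 (myoblasts), close to 75th-percentile scaling, are not centred by gene, and have medians of 7.88, 7.77 and 7.42. Why the constants are not exactly those of the percentile is unknown.

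Of 43379 non-control spots on each array, 45.7%, 46.9% and 50.7% were well above background on the neurogenic, BIO and myoblast arrays, and 0 were saturated. The number of arrays limits the precision. Control and outlier spots were dropped, and repeat spots averaged as log2. Each value is log2 intensity minus the log2 75th percentile, 155.7, 114.9 and 180.9 intensity units in the same order. Probes were named by unversioned RefSeq accession (assembly GRCm38.p6; 26901 of 41174 probes). Each gene is represented by its probe of highest mean signal. For a bound, the dim side was put at its own signal or at that array's lowest well-measured signal, whichever was higher; bounds below 1-fold count as a log2 ratio of 0, and genes with another probe above background where the chosen one was dim were left out. The SE of a ratio combines both spots' errors from the scanner software and leaves out differences between cultures. Nothing says how many cultures stand behind an array.

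The members and the lists were chosen with earlier results of these data known. Named genes were all members, list genes past 2-fold in any comparison, and, for the 3 members of widest range, the 3 nearest genes; others are marked. One marker gene is not reported here. The ratio step was tested on simulated data, for genes measured on both arrays. The lower bounds were not checked in this way. Normexp (limma 3.58.1, R 4.3.3, offset 50) used median spot intensities in place of the planned means, which were not used here. Promoter sequences are RefSeq's, on GRCm38.p6; 3 of 10 members had windows. Other steps used Python 3.11.15, numpy 2.4.6, pandas 2.3.3 and matplotlib 3.10.9.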

Additional observations from a re-analysis of the deposited data

How the results depend on the processing

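The members' log2 ratios were recomputed under 9 other settings, of which the authors' deposited values and the restriction to genes measured on both arrays gave 19 of 25 ratios each, and 0 called ratios changed sign. Of 213 such values 183 lay within the repeat-spot limit of the main one; of the other 30, 15 came from scaling to the array median and 8 from spike-in scaling, chosen after seeing the data. The neurogenic/BIO ratio of Vcam1 ranged from 2.65 to 3.14, that of Cdon from 1.45 to 2.12, and the BIO/myoblast ratio of Cdon from -2.04 to -1.11. By the BIO/myoblast ratio the number of members at least 2-fold higher was 1 in place of 0 with the percentile over probes well above background, quantile normalisation and spike-in scaling, and 1 at a 1.5-fold threshold, each time Mymk. The number lower was 2 in place of 3 with that percentile, quantile normalisation and spike-in scaling, and also with the deposited values or only genes measured on both arrays. By the neurogenic/BIO ratio the number lower was 1 in place of 0 at 1.5-fold, namely Cdh15. By the neurogenic/myoblast ratio the number higher was 1 in place of 2 with median scaling, quantile normalisation and normexp correction. It was 4 with spike-in scaling, which added Cdon and Dysf, and 3 without the filter on dim probes. The number lower there was 1 in place of 2 when only genes measured on both arrays, or the authors' deposited values, were used, and neither gives a value for Megf10. No paired analysis was possible because each group has 1 array. The share of higher genes among all genes called by the BIO/myoblast ratio was 65.1%, against 9.07% with median scaling, 77.1% with the percentile over probes well above background, 79.8% with spike-in scaling, 50.2% after quantile normalisation, 29.1% after normexp correction and 81.0% without the filter on dim probes. By the neurogenic/BIO ratio it was 69.9%, against 82.1% with that percentile and 91.9% with spike-in scaling. By the neurogenic/myoblast ratio it was 54.7%, against 11.5% with median scaling, 77.7% with that percentile, 87.5% with spike-in scaling, 31.3% after normexp correction and 76.9% without the filter. The signal over background limits Cdh2, Boc, Jam2 and the second probe of Vcam1, for which a difference was not detectable, or not beyond what dim genes show.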
